A study of Mus musculus with 6 samples.

Results

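Complement is a cascade of plasma proteins that coat microbes, immune complexes and dying cells for uptake by phagocytes. It starts when a recognition molecule binds its target. C1q, built of A, B and C chains, opens the classical pathway on antibody complexes and apoptotic cells, the ficolins open the lectin pathway on sugars, and properdin stabilizes the enzyme that cleaves C3 in the alternative pathway. Most plasma complement comes from the liver, whereas C1q and properdin are made largely by cells of the immune system, C1q above all by tissue macrophages and immature dendritic cells. Resting T cells are not a usual source of C1q.

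The genes examined were those of the C1q chains (C1qa, C1qb, C1qc), C3, the C3a receptor (C3ar1), properdin (Cfp), the mouse ficolin Fcna and the C3b receptor Vsig4, 8 genes chosen by name and each represented by its brightest probe set. Probe sets were found for 7 of the 8, 1 probe set each. C3 itself was not analysed here. Of the 7, C1qa, C1qb, C1qc, Cfp and Fcna reached the array's median signal over all probe sets in at least 1 array and were tested with 9924 genes in all. C3ar1 and Vsig4 did not reach it in any array.

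The RNA came from CD8+ T cells (CD8-TC) taken fresh, without activation, from spleens of male ICR mice aged 6 weeks, and was read on 6 whole-transcript arrays (Affymetrix mouse Gene 1.0 ST), 3 Runx3-/- and 3 WT (Runx3 +/+). These are biological repeats, and the sources used here do not say whether each is 1 mouse or several. ICR is an outbred stock, and the Runx3-/- mice lacked the transcription factor Runx3 in all cells, not in T cells alone. WT cells were selected on anti-CD8 beads, and Runx3-/- cells were selected likewise and then sorted by FACS against CD8+ dendritic cells that carry CD11c, so that genotype and this added sort cannot be told apart. That account is from the methods, whereas a sample label mentions sorting for all samples. If the label holds, the sort was not particular to Runx3-/- cells.

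The CD8 coreceptor gene Cd8a stood at 11.06 ± 0.13 in Runx3-/- and 11.10 ± 0.04 in WT arrays (log2 signal, SD, n = 3 each). As the beads select CD8, which some dendritic cells also carry, Cd8a does not tell T cells from these. The T cell gene Cd3g stood at 11.38 ± 0.11 in Runx3-/- and 11.20 ± 0.23 in WT arrays. Neither value shows how many other cells the samples held. Per the methods, bead selection of WT cells highly enriched CD3+ CD8-TC but left a small share of other cells. No such share is given there for resting Runx3-/- cells after their sort. The Runx3 probe set did not fall, with a difference of 0.16 ± 0.16 (SE, limma adjusted p = 0.559), and the sources used here do not say whether it reads the deleted part. Across genes, the correlation was at least 0.985 within a genotype and at most 0.971 between the genotypes. Array medians ran from 3.45 to 3.53. Of the 9924 genes tested, 595 (6.00%) were lower and 559 (5.63%) higher in Runx3-/- cells at a limma adjusted p under 0.05.

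The C1q chain genes lie next to each other on chromosome 4, in the order C1qb, C1qc and C1qa. The RefSeq promoters (GRCm38.p6, minus strand) of C1qb, at chr4:136886151-136886450, and of C1qc, at chr4:136892865-136893164, are shown because these neighbours changed by nearly the same amount. Each runs from 250 bases before to 50 bases after the start. Capitals mark matches on either strand to RUNX motifs, which were TGTGGT (held by 16.8% of all RefSeq promoters of this length), TGTGGC (by 18.9%), TGCGGT (by 6.45%) and TGCGGC (by 12.4%), and to GAGGAAGT, a core of sites of the myeloid factor PU.1.
C1qb: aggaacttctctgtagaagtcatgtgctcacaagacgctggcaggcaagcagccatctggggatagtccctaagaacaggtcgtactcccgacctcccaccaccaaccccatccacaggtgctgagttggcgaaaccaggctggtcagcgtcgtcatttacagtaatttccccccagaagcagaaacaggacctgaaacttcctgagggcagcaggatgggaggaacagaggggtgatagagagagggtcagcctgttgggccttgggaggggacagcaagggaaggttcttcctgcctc
C1qc: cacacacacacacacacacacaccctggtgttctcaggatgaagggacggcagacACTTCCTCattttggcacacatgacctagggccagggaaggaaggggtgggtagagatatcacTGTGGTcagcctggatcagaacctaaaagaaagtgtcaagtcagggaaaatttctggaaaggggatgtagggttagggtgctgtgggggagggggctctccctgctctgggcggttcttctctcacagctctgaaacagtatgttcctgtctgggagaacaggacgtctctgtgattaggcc

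The C1qc promoter holds TGTGGT from 132 bases before the start and GAGGAAGT, on the opposite strand, from 195 bases before it. These matches do not overlap. The C1qb window holds none of these letters. Among the 6 measured genes with a promoter in the RefSeq table, C1qa not being one of them, 2 hold a RUNX match (C1qc, and Fcna with TGTGGC from 42 bases before the start) and 1 a PU.1 match. Of all 32851 RefSeq promoters of this length, 45.2% hold at least 1 RUNX match and 3.20% the PU.1 letters. A match is a description of the sequence and not a binding site.

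All C1q chain genes were strongly lower in Runx3-/- CD8-TC, and so were Fcna and Cfp. All 5 tested genes passed (5 of 5 lower, 0 higher), where 6.00% of all tested genes were called lower. Their falls lay between 3.19-fold for Cfp and 7.10-fold for C1qa, with a median difference of -2.62 on the log2 scale beside 0.0062 over all genes tested. All 5 had every Runx3-/- array below every WT array, as had 16.2% of all tested genes (33.6% did not overlap in either direction). In a bulk sample, fewer cells of a type and less RNA per cell cannot be told apart.

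**Figure D1:**
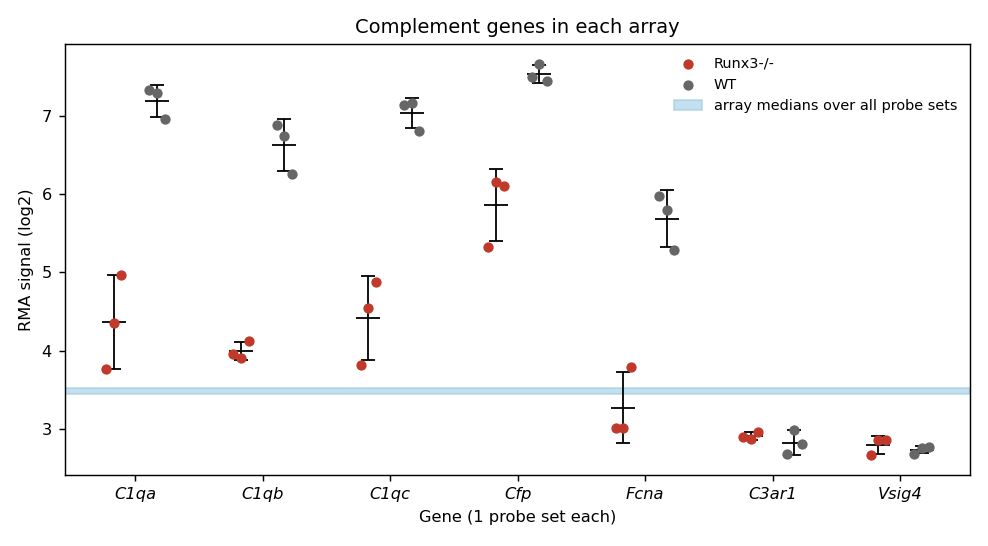
Log2 RMA signal (vertical axis) of 7 complement genes (horizontal axis) in each Runx3-/- (red) and WT (grey) array, with group means and SD (n = 3 arrays each) and, as a blue band, the array medians over all probe sets. The Runx3-/- points of C1qa, C1qb, C1qc, Cfp and Fcna lie below all WT points, whereas C3ar1 and Vsig4 lie below the band in both genotypes.

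C1qa, the A chain (probe set 10517517), read 3.77, 4.35 and 4.97 in the Runx3-/- arrays, against 7.33, 7.29 and 6.96 in the WT arrays. The lowest WT array stood 1.99 above the highest Runx3-/- array, although the Runx3-/- arrays differed widely among themselves. The difference was -2.83 ± 0.27 (SE, n = 3 each, limma adjusted p = 0.000493), the 16th largest fall among the genes tested.

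C1qb, the B chain (probe set 10517508), read 3.96, 3.90 and 4.12 in the Runx3-/- arrays, against 6.88, 6.75 and 6.25 in the WT arrays. Here the Runx3-/- arrays lay close together, with an SD of 0.11 beside 0.60 for C1qa. The difference was -2.63 ± 0.16 (SE, limma adjusted p = 8.14e-05).

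C1qc, the C chain (probe set 10517513), read 3.82, 4.54 and 4.87 in the Runx3-/- arrays, against 7.13, 7.16 and 6.81 in the WT arrays. The order of the Runx3-/- arrays was that of C1qa. The difference was -2.62 ± 0.24 (SE, limma adjusted p = 0.00045), and the intervals of all C1q chains overlapped, at -3.44 to -2.22 for C1qa, -3.00 to -2.26 for C1qb and -3.18 to -2.07 for C1qc (95%, limma). The C1q signals stayed above the array medians in every array. The Runx3-/- means stood at the 62.7th, 57.9th and 63.4th percentile of all probe sets, in the order C1qa, C1qb and C1qc, and the WT means at the 88.5th, 84.1st and 87.3rd.

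The C1q genes were examined beside their neighbours on the chromosome. Of the 4 protein-coding genes on either side, Kdm1a on the C1qb side and Zbtb40 and Cdc42 on the C1qa side were tested, and none passed. Kdm1a, which encodes a histone demethylase, gave -0.038 ± 0.09, Zbtb40 0.057 ± 0.10 and Cdc42 0.0041 ± 0.11 (SE, limma adjusted p of 0.756 or higher). All 3 had overlapping groups. The other flanking genes did not reach the filter or, like Ephb2, had no probe set of their own in the annotation.

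Fcna encodes ficolin A, which in the mouse is known from macrophages of spleen and liver. The probe set (10480849) read 3.01, 3.02 and 3.79 in the Runx3-/- arrays, against 5.98, 5.79 and 5.28 in the WT arrays. Replicates 1 and 2 of the Runx3-/- group lay below their array medians. The difference was -2.41 ± 0.24 (SE, n = 3 each, limma adjusted p = 0.000655), a 5.32-fold fall.

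Cfp encodes properdin, which besides macrophages is made by neutrophils, monocytes and T cells. The probe set (10603860) read 5.32, 6.15 and 6.11 in the Runx3-/- arrays, against 7.50, 7.66 and 7.44 in the WT arrays. Its mean of 5.86 ± 0.47 (SD) in Runx3-/- cells stood at the 77.7th percentile of all probe sets, beside the 90.8th for its mean of 7.53 ± 0.12 in WT cells. The difference was -1.67 ± 0.21 (SE, limma adjusted p = 0.00195). It was the smallest of the 5 falls, and its interval, -2.15 to -1.20, did not overlap those of C1qa and C1qb but did overlap those of C1qc and Fcna.

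The falls of the C1q genes were set beside those of Cfp and Fcna with the exact permutation test over arrays. With 3 against 3, it cannot give a two-sided p below 0.1. No outcome could thus pass the threshold of 0.05, and the test cannot decide whether the C1q genes fell more. Each gene was first centred on its mean over the 6 arrays. The mean of C1qa, C1qb and C1qc minus Cfp differed by -1.02 between Runx3-/- and WT on the log2 scale, at -0.51 ± 0.24 in Runx3-/- and 0.51 ± 0.19 in WT arrays (SD, n = 3 each) with no overlap (exact permutation p = 0.1, the smallest this test can give, and 0.15 adjusted over 3 such contrasts). Against Fcna the difference was -0.28, with overlapping groups (exact permutation p = 0.2, adjusted 0.2), but as Fcna lay below the array median in 2 Runx3-/- arrays, the size of its fall is not well measured.

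The signals of the receptors C3ar1 and Vsig4 lay below the array medians in both genotypes. C3ar1, the receptor for the C3a fragment (probe set 10547657), read 2.90, 2.87 and 2.97 in the Runx3-/- arrays and 2.68, 2.99 and 2.81 in the WT arrays. Vsig4, a receptor of tissue-resident macrophages for C3b and iC3b (probe set 10605848), read 2.66, 2.86 and 2.86 in the Runx3-/- arrays and 2.68, 2.76 and 2.77 in the WT arrays. The groups of both genes overlapped. Fitted without the filter, among 19938 genes of which 5.26% were called and 2.70% called lower, the differences were 0.085 ± 0.088 (95% interval -0.12 to 0.29) for C3ar1 and 0.057 ± 0.075 (-0.12 to 0.23) for Vsig4 (SE, limma adjusted p = 0.709 and 0.774). No statement on a change of these receptors can be drawn at this signal.

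The C1q genes, Fcna and Cfp also varied together among arrays of a genotype. Replicate 1 of the Runx3-/- arrays had the lowest value for 4 of the 5 genes, and replicate 3 the highest for 4 of the 5. In the WT group replicate 3 was lowest for 5 of 5. Over the 6 arrays, deviations from the genotype means correlated above 0 in all 10 pairs of these genes, between 0.19 for C1qb with Cfp and 0.98 for C1qa with C1qc, with a median of 0.78. These correlations are descriptions over 6 arrays and share each array's RNA and normalization.

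**Figure D2:**
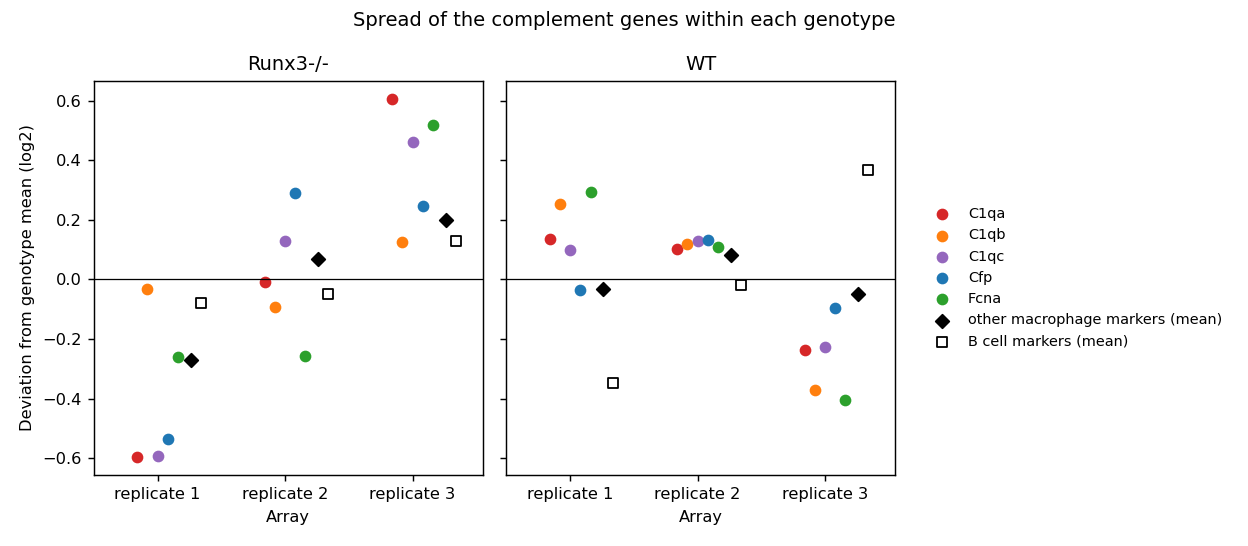
Deviation of each array from its genotype's mean on the log2 scale (vertical axis) for 5 complement genes (coloured points) and for the mean of the other macrophage markers (black diamonds) and of the B cell markers (open squares), by array (horizontal axis) in Runx3-/- (left) and WT (right) mice. Replicate numbers are not stated to pair arrays across genotypes. In WT replicate 3 all 5 genes lie below their mean while the B cell markers lie above theirs.

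The rest of the complement system was examined in lists by role. Of 48 further genes listed, 45 had a probe set, and only 15 reached the signal filter in at least 1 array. Of these, limma called 4 lower in Runx3-/- cells and 0 higher (7 and 2 at an unadjusted p under 0.05). The other 11 missed the threshold. The median was -0.32, where 6.00% and 5.63% of all tested genes were called lower and higher. Among the genes called lower, Cfb and C6 reached the filter only in WT arrays.

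Enzymes and terminal components were near the limit of the signal. Cfb and C6 lay below the array median in every Runx3-/- array and entered the test only through WT arrays. Cfb, the protease of the alternative pathway convertase, read 3.03, 3.42 and 3.20 in the Runx3-/- arrays, against 4.03, 4.12 and 4.59 in the WT arrays, with a difference of -1.03 ± 0.16 (SE, limma adjusted p = 0.00638). C6, a component of the membrane attack complex, averaged 3.16 ± 0.05 in Runx3-/- and 3.64 ± 0.16 in WT arrays (SD, n = 3 each), a difference of -0.48 ± 0.10 (adjusted p = 0.0241) at a level close to the array medians. The groups of both genes were apart, and the C6 call was lost on leaving out any 1 Runx3-/- replicate, WT replicate 1 or WT replicate 2. Of the 14 classical and lectin pathway genes with a probe set, C1r, C1s, C2, C4 and mannan-binding lectin genes among them, the scavenger receptor Colec12 was the only one tested, at -0.046 ± 0.15.

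Among 7 complement receptors tested, 2 were lower and 0 higher in limma (4 and 1 at an unadjusted p under 0.05). The share called lower over all tested genes was 6.00%. Cr2, the receptor for C3d on B cells and follicular dendritic cells, read 3.98, 4.19 and 3.99 in the Runx3-/- arrays, against 6.71, 7.48 and 7.92 in the WT arrays. Its difference of -3.32 ± 0.26 (SE, limma adjusted p = 0.000188) was further from 0 than that of any C1q gene, and the order of its WT arrays was opposite to that of C1qa and C1qb, with WT replicate 3 highest. Lrp1, an endocytic receptor that also takes part in C1q-dependent uptake, averaged 3.40 ± 0.15 in Runx3-/- and 4.86 ± 0.32 in WT arrays (SD, n = 3 each) and differed by -1.46 ± 0.16 (SE, adjusted p = 0.00115). Itgb2, the integrin chain shared by complement receptors 3 and 4 and all leukocyte integrins of its family, gave 0.35 ± 0.11 (adjusted p = 0.0809, and past the threshold after quantile normalization, with trend and robust moderation, with array weights and without Runx3-/- replicate 3), C1qbp -0.32 ± 0.11 and the C1q-binding chaperone Calr -0.32 ± 0.12. Calr passed as lower without Runx3-/- replicate 1. Itgax encodes CD11c, the marker of the sort that the methods describe for Runx3-/- cells and a chain of complement receptor 4. It averaged 4.87 ± 0.46 in Runx3-/- and 5.78 ± 0.94 in WT arrays (SD, n = 3 each), with WT replicate 3 highest at 6.83. These groups overlapped, and Itgax did not pass (limma adjusted p = 0.207). Itgam, which encodes the partner chain of complement receptor 3, did not reach the filter.

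None of 5 regulators passed in limma (1 was lower and 1 higher at an unadjusted p under 0.05). Clu, a fluid-phase inhibitor of the terminal complex, averaged 3.52 ± 0.04 in the Runx3-/- arrays (SD), against 4.80, 4.18 and 6.42 in the WT arrays. Its groups were apart, yet the WT arrays spread over more than the gap between the groups, and -1.61 ± 0.47 gave an adjusted p of 0.0623. It passed without WT replicate 2 or 3, with arrays centred on their median and by the fold rule of the methods. WT replicate 3 was also the highest WT array for Cr2 and for the B cell chemokine gene Cxcl13 (5.83, with 3.67 the lowest WT value), a gene of follicular stroma. The membrane regulators Cd55b and Cd46 gave 0.27 ± 0.11 and 0.33 ± 0.15 and did not pass.

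**Figure D3:**
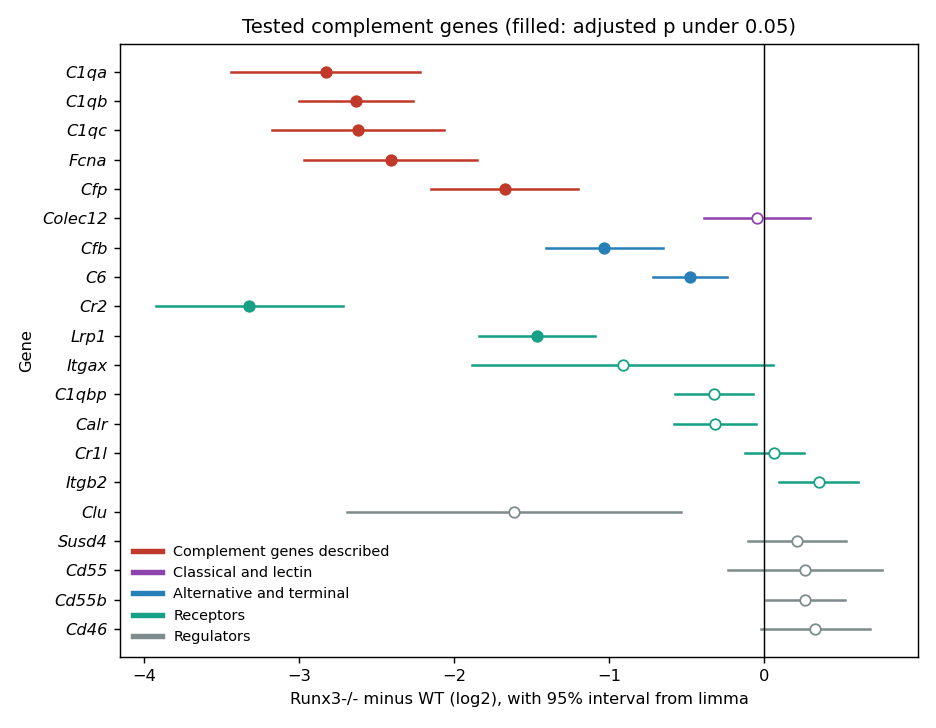
Difference of Runx3-/- minus WT on the log2 scale with its 95% limma interval (horizontal axis) for the 20 complement genes tested (vertical axis), coloured by role, with filled points for an adjusted p under 0.05. The 5 C1q, ficolin and properdin genes and Cr2 lie furthest left, at -1.67 or lower, and the regulators other than Clu lie between 0.21 and 0.33.

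Markers of macrophages moved with the complement genes. Of 20 other macrophage markers tested, 18 were lower and 0 higher in limma (18 and 0 also at an unadjusted p under 0.05), with a median of -1.80. Of all tested genes, 6.00% were called lower. Without the filter, 17 of 24 of these markers were lower. Mertk, Marco, Fcgr1, Siglec1 and Cd163 lay below the array median in every Runx3-/- array and entered the test only through WT arrays. Of these, all but Cd163 were called lower. The summed linear signal of the 20 markers ranged from 1391 to 1750 in the Runx3-/- arrays and from 4182 to 4732 in the WT arrays. The inhibitory receptor Sirpa (-2.39 ± 0.12, SE) and the efferocytosis receptor Axl (-2.07 ± 0.13) had the lowest p, and Ctss, the brightest, gave -0.18 ± 0.11 and did not pass. The falls of the C1q genes lay inside the range of these markers, with 4 or 5 of the 20 falling further. They also lay inside the ranges of the B cell and of the erythroid markers given below. Centred in the same way and averaged per array, the 5 complement genes minus the 20 markers stood at -0.34 ± 0.17 in Runx3-/- and 0.34 ± 0.20 in WT arrays (SD, n = 3 each), a difference of -0.68 with no overlap of the groups. The exact permutation p of 0.1 (adjusted 0.15) is the smallest this test can give, so it could not have passed at any size of the gap. The part of the macrophage content of the samples in the falls of C1q, Fcna and Cfp was not tested.

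Transcription factors known from macrophages were also examined. Of 10 tested, 5 were lower and 0 higher in limma (6 and 0 at an unadjusted p under 0.05), with a median of -0.50. The share called lower over all tested genes was 6.00%. Nr1h3, the oxysterol receptor LXR alpha, differed by -1.32 ± 0.13 (SE), Spic, which red pulp macrophages of the mouse need, by -1.71 ± 0.21, and Spi1, which encodes PU.1 and is also used by B cells, by -1.76 ± 0.28 (limma adjusted p of 0.00623 or lower). Spic averaged 4.10 ± 0.46 in the Runx3-/- arrays, whose order was that of C1qa and C1qc, and 5.82 ± 0.11 in the WT arrays (SD, n = 3 each). Rxra (-0.54) and Zeb2 (-0.46) passed as well, whereas Irf8 (-0.85 ± 0.29), Tfeb (-0.12) and Bhlhe40 (0.17) did not. Nr1h3 lay below the array median in every Runx3-/- array and reached the filter only in WT arrays.

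Markers of other cell types were counted in the same way. Dendritic cell markers were lower for 4 of 15 and higher for 0 in limma (9 and 0 at an unadjusted p under 0.05), with a median of -0.60. The brightest was Cd74 (10.09 ± 0.60 in Runx3-/- and 10.97 ± 0.38 in WT arrays, SD), and Wdfy4 (-1.52) and Ciita (-1.30) had the lowest p. Of the neutrophil markers, Ngp (-1.63) and S100a8 (-0.58) were the 2 of 4 tested that passed as lower (4 and 0 at an unadjusted p under 0.05). B cell markers fell for 12 of 13, with a median of -2.27 and the lowest p for Cd79a (-3.20) and Fcer2a (-2.22). Cd79b, the brightest over the 6 arrays, gave -2.29. Erythroid markers fell for 5 of 5, with the lowest p for Alas2 (-3.39) and Slc4a1 (-2.86), and the brightest, Car2, gave -1.70. Of 6 natural killer cell markers Klrd1 fell (-2.03) and Gzma rose (2.48), whereas Prf1, the brightest, gave -0.089 ± 0.13 and did not pass. The stromal gene Cxcl13 gave -0.80 ± 0.49. T cell markers were higher for 4 of 13 and lower for 0 in limma (5 and 0 at an unadjusted p under 0.05), with a median of 0.22, with the lowest p for Cd28 (0.99) and Cd247 (0.61), and Cd3g, the brightest, gave 0.18 ± 0.13. The part of these cell types in the complement falls was not tested. Of all tested genes, 6.00% were called lower and 5.63% higher. The dendritic cell marker Batf3, Fcer2a, Ebf1, Slc4a1, Car1, Epb42 and all 4 neutrophil markers lay below the array median in every Runx3-/- array. They entered the test only through WT arrays. In the WT arrays the 5 complement genes were lowest in replicate 3. List means that were highest there were those of B cell markers (6.87 beside 6.16 and 6.49 in replicates 1 and 2), dendritic cell markers (7.73 beside 7.09 and 7.09) and natural killer cell markers (5.81 beside 5.57 and 5.55). Those lowest there were macrophage markers (6.43 beside 6.45 and 6.56), neutrophil markers (3.53 beside 4.05 and 4.30) and T cell markers (9.04 beside 9.29 and 9.24). Erythroid markers were lowest in replicate 2, at 5.40.

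**Figure D4:**
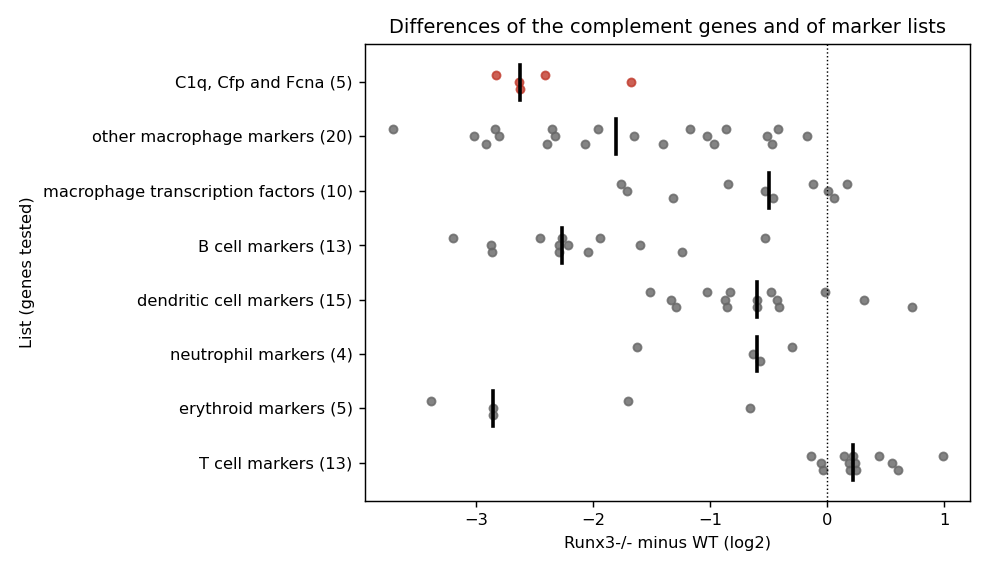
Difference of Runx3-/- minus WT on the log2 scale (horizontal axis) for each tested gene of the lists named on the vertical axis, with the number of genes and, as a black bar, the median of the list. The complement genes (red) lie at -1.67 or lower. They are within the spread of the other macrophage markers and also within that of the B cell and of the erythroid markers. The T cell markers run from -0.14 to 0.99, with a median of 0.22.

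The genes whose values over the 6 arrays were most like the mean of the C1q chains were Csf1r (Pearson r = 0.999), Mrc1 (0.998), Psmb6, Itgad, Wdfy3, Apoe, Igkv9-120, Blvrb, Axl and Tmem251 (0.993 for the last). Of 9919 genes compared, 174 had an r over 0.95 and 19 over 0.99. With 6 arrays in groups that lie apart, r is set mostly by the genotype difference, whatever its size. Csf1r, the receptor for macrophage colony-stimulating factor, differed by -2.84 ± 0.24 (SE), close to C1qa, and the mannose receptor Mrc1 by -2.91 ± 0.20, whereas the proteasome subunit Psmb6 differed by only -0.19 ± 0.08 and did not pass (limma adjusted p = 0.18). The immunoglobulin segment Igkv9-120, at -2.85 ± 0.24, was also close to C1qa. The integrin chain Itgad differed by -1.75 ± 0.13, the apolipoprotein gene Apoe by -1.96 ± 0.18 and the biliverdin reductase gene Blvrb by -1.34 ± 0.14. Wdfy3 (-0.77 ± 0.09) and Tmem251 (-0.44 ± 0.09) changed less.

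With any 1 array left out, all 5 complement genes kept their direction and their call, with limma adjusted p of 0.00916 or lower. Without moderation of the variances across genes, C1qb alone passed (adjusted p = 0.0368) and the other 4 lay between 0.0597 and 0.0824.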

How the data were processed

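The deposited values were 1 log2 signal per probe set and array. Per the methods, the authors made them from CEL files in Partek Genomics Suite, by RMA with a GC correction. Partek and RMA also stand in the submitters' processing notes, with no version. No genome build is stated for the arrays in the sources used here. The values themselves showed the log2 scale. RMA makes arrays alike in distribution, so that differences are relative to the bulk of probe sets. No detection call was used.

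GEO's platform annotation gave exactly 1 gene to 21789 of 35399 probe sets. Each gene was represented by its brightest probe set, and was tested if it reached the median of all probe sets in any array. Differences, Runx3-/- minus WT, were tested two-sided in limma 3.58.1 (R 4.3.3, lmFit and eBayes, no covariates), with Benjamini-Hochberg adjustment over all 9924 genes and a threshold of 0.05. The number of arrays limits the precision. Sequences are from RefSeq (GRCm38.p6). Nothing says that the repeats are separate mice, so p-values measure the spread between these samples.

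The complement genes, the lists and the rule for named genes (every gene past the threshold and up to 3 others with the lowest p in each complement and transcription factor list, the 2 lowest p and the brightest marker of each cell type list, and the 10 genes most like the C1q mean) were chosen with earlier results of these data known. Itgax, Cxcl13 and the C1q neighbours were named after their values were seen. The permutation contrasts were not among the tests planned. Alternatives were quantile normalization, median centring, other filters, mean probe sets, no moderation, trend and robust moderation, array weights, a replicate block, arrays left out, and the methods' rule (1.5-fold, unadjusted p under 0.05).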

Additional observations from a re-analysis of the deposited data

How the results depend on the processing

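The differences of C1qa, C1qb, C1qc, Cfp and Fcna kept their direction under all 17 alternatives, and their call under all but the fit without moderation of variances. In that fit C1qa (-2.83, adjusted p = 0.061), C1qc (-2.62, 0.0597), Fcna (-2.41, 0.0674) and Cfp (-1.67, 0.0824) did not pass, 1 of the 5 genes was called lower, 178 genes were called in all, 1 other complement gene was lower (Cr2) and 8 other macrophage markers were lower. With 1 array left out, between 619 and 920 genes were called, against 1154 with all arrays. The count was 619 without WT replicate 1, 631 without Runx3-/- replicate 2 and 621 without Runx3-/- replicate 3, and fewer arrays also lower the precision.

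Other complement genes called lower numbered 1 with the filter at the 75th percentile, where 8 were tested. Those called higher numbered 1 (Itgb2) with quantile normalization, with trend and robust moderation and with array weights, and between 0 and 1 with 1 array left out (Itgb2 without Runx3-/- replicate 3, Cd55 without Runx3-/- replicate 1). Calr was called lower without Runx3-/- replicate 1. C6 did not pass without any 1 of the Runx3-/- replicates, without WT replicate 1 or without WT replicate 2. Nothing in the sources used here says that the replicate numbers of the titles pair the samples. Deviations of arrays with the same number correlated at 0.18, 0.032 and -0.00014, and 2 of 6 arrays correlated best with their own number. With 3 arrays per genotype, these values cannot decide whether samples were paired. With the replicate block 1084 genes were called, and the 5 complement genes kept their calls. Signals near or below the array median limit what can be said of C3ar1, Vsig4 and Fcna in Runx3-/- cells.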
